A study of Mus musculus with 8 samples.

Results

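The mouse mitochondrial genome carries 13 protein-coding genes, all encoding subunits of the respiratory chain or ATP synthase, and 10 of them were listed in the deposited tables among 27453 genes. The 10 were found by their symbol prefix (mt-) and their protein-coding annotation in GENCODE mouse release M21 on mm10. They are mt-Nd1, mt-Nd2, mt-Nd3, mt-Nd4l, mt-Nd5 and mt-Nd6 of complex I, mt-Co1 and mt-Co2 of complex IV, and mt-Atp6 and mt-Atp8 of ATP synthase. mt-Nd4, mt-Co3 and mt-Cytb were not analysed here. The annotated lengths of these 3 genes each leave a remainder of 1 base on division by 3, whereas all 10 listed genes have lengths that are whole multiples of 3. Each of the 10 is represented by 1 transcript, and all of them had enough reads to be tested.

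The measurements are nanopore direct RNA sequencing of liver from C57BL/6JN mice, an inbred laboratory strain. Native polyadenylated RNA selected on oligo(dT) beads was read through a pore without amplification, so that each read is 1 RNA molecule or a 3′ part of one. There are 8 libraries, each from a separate animal by the animal labels in the files, in 2 groups of 4 whose titles begin with O or Y. Replicates 1 and 2 of each group are male and replicates 3 and 4 female, so each sex and title combination holds 2 libraries. The labels of these groups conflict. The series text describes young livers (near 2 months) and old livers (near 18 months), yet the O-titled mice are entered with an age of 12 weeks and the Y-titled mice with 80 weeks, and in all 8 samples the treatment field equates old with treated. The groups are therefore named by title, and every fold change is O-titled over Y-titled with no age attached to it. No genetic change or drug is labelled in any of the 8 mice, and no flow cell or run date is given.

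Mitochondrial DNA is transcribed from both strands as long precursors. Transfer RNAs lie between most of the coding sequences, and their excision releases the individual mRNAs, most of which are then polyadenylated inside the organelle. Levels given here cover only RNA kept by the oligo(dT) beads, and how fully each mRNA was kept was not tested. mt-Nd4l with mt-Nd4, and mt-Atp8 with mt-Atp6, overlap and are each known to stay together on a bicistronic mRNA. Liver is rich in mitochondria, and the proteins made from these mRNAs assemble with many nuclear-encoded subunits.

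The overlapping reading frames matter for what a read can be assigned to, so both junctions are shown, with the shared bases in capitals. The sequences are those of the GENCODE transcripts on mm10, all on the plus strand of the mitochondrial chromosome. mt-Nd4l is complete at 297 bases (chrM:9877-10173), with the first 60 bases of mt-Nd4 (chrM:10167-10226) under it, and the genes share 7 bases. The last 100 bases of mt-Atp8 (chrM:7870-7969) and the first 100 bases of mt-Atp6 (chrM:7927-8026) share 43 bases.
mt-Nd4l: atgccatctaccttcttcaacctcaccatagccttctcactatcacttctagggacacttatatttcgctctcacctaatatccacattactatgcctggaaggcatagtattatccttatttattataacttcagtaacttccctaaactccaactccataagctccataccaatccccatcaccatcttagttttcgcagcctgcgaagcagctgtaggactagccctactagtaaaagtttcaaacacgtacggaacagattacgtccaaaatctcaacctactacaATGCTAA
mt-Nd4 start: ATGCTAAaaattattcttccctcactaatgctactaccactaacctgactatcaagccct
mt-Atp8 end: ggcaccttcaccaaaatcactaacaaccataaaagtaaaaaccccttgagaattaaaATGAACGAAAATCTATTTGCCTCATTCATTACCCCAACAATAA
mt-Atp6 start: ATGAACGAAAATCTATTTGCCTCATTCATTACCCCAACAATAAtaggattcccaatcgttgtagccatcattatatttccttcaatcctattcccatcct

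The reads assigned to mt-Nd4l were far longer than the gene. Their median length was 1699, 1698, 1698 and 1702 bases in O-titled libraries 1 to 4 and 1699, 1696, 1702 and 1698 bases in Y-titled libraries 1 to 4. These medians are 5.71 to 5.73 times the 297 annotated bases. The stretch from the start of mt-Nd4l to the end of mt-Nd4 (chrM:9877-11544) is 1668 bases, and the medians exceeded it by 28 to 34 bases in every library. The level given below for mt-Nd4l is thus a count of reads whose typical length is that of the mt-Nd4l and mt-Nd4 pair, and the levels of the mt-Nd4l and mt-Nd4 reading frames cannot be told apart. A read of the pair that lacks its 5′ end can cover mt-Nd4 alone, and mt-Nd4 was not analysed here. The number of such reads is therefore not known. Whether poly(A) or adapter bases are included in the deposited read lengths is not given in the sources used here.

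At the other junction nearly all reads were assigned to mt-Atp6, which encodes a membrane subunit of the proton channel of ATP synthase. mt-Atp8, which encodes a small accessory membrane subunit, received 21 to 94 reads per library, or 0.268% to 0.499% of the mt-Atp6 count. Median read length for mt-Atp6 ranged from 657 to 748 bases, around its annotated 681 bases and 94 to 185 bases short of the 842 bases of the pair (chrM:7766-8607). The split of reads between these genes is uncertain, because a read that lacks its 5′ end covers mt-Atp6 alone and the rule for reads that fit both is not stated.

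**Figure D1:**
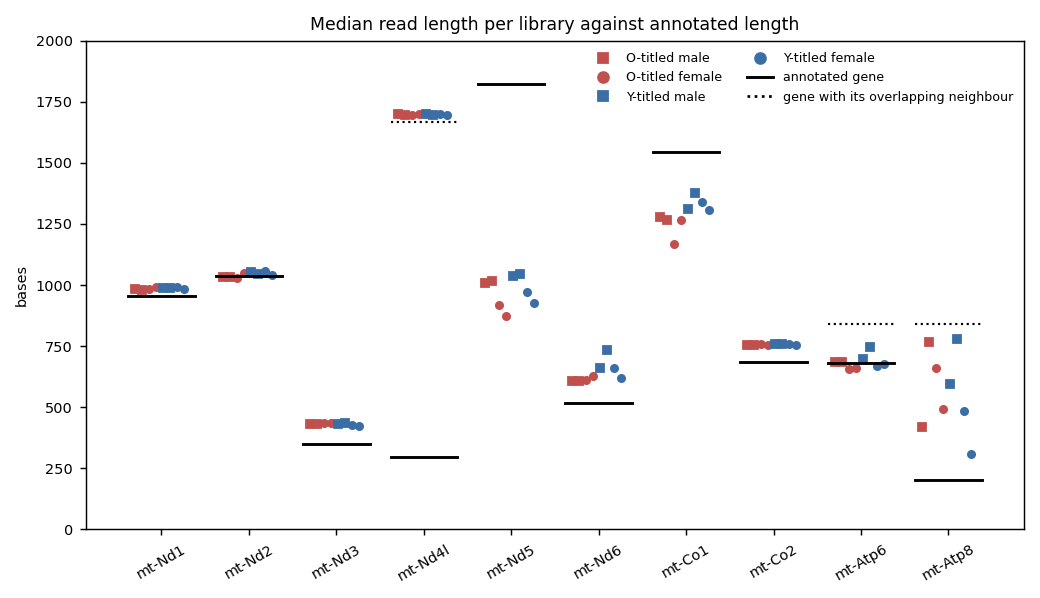
Median read length in bases (vertical axis) for each of the 10 mitochondrial mRNAs in each of 8 libraries (points, coloured by title and shaped by sex), with the annotated gene length as a solid bar and the length with the overlapping neighbour as a dotted bar. mt-Nd4l sits at 1696 to 1702 bases against 297 annotated bases, mt-Nd5 and mt-Co1 lie below their annotated lengths, and mt-Nd3 and mt-Co2 lie above theirs.

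The other complex I mRNAs differed in how much of the gene a typical read covered. Reads of mt-Nd1 (chrM:2751-3707, 957 bases) had medians of 978 to 993 bases, and those of mt-Nd2 (chrM:3914-4951, 1038 bases) had medians of 1030 to 1059 bases. mt-Nd3 (chrM:9459-9806, 348 bases) had medians of 424 to 437 bases, above the gene length in every library. mt-Nd5 (chrM:11742-13565), the longest gene at 1824 bases, had medians of 872 to 1047 bases, and mt-Nd6 (chrM:13552-14070, 519 bases), the only member on the minus strand, had medians of 606 to 736 bases. In complex IV, mt-Co2 (chrM:7013-7696, 684 bases) stayed between 755 and 759 bases, while mt-Co1 (chrM:5328-6872, 1545 bases) varied from 1169 to 1376 bases. Medians thus lay above the annotated length in all 8 libraries for mt-Nd1, mt-Nd3, mt-Nd6 and mt-Co2, and below it for mt-Nd5 and mt-Co1, the 2 longest genes. They were also above it in all 8 for mt-Nd4l and for mt-Atp8, whose few reads had medians of 308 to 779 bases against 204 annotated bases.

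Some single reads were much longer than the gene they were assigned to. The longest read assigned to a member in any library was 8020 bases, for mt-Nd2 in Y-titled library 3, and in every library the longest mt-Nd1 read was at least 3788 bases. The deposited tables give no alignment positions, so the sequence these long reads cover was not examined.

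Mitochondrial mRNAs made up 7.52%, 7.74%, 7.29% and 6.82% of mapped reads in O-titled libraries 1 to 4. In Y-titled libraries 1 to 4 the share was 7.59%, 7.62%, 8.66% and 11.1%. Mapped reads ranged from 545171 to 2593200, so that 41539 to 194905 mitochondrial reads stood behind each share and the half-width of its 95% Wilson interval was at most 0.0704 percentage points. Reads are not amplified, but these intervals cover counting error only. The 4 male libraries lay close together between 7.52% and 7.74%, the O-titled females lay below them and the Y-titled females above.

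The mean share was 7.34% ± 0.391 (SD, n = 4) in O-titled and 8.76% ± 1.67 (SD, n = 4) in Y-titled libraries, and the groups overlapped (exact two-sided permutation test, p = 0.114, where 4 against 4 can reach 0.0286). Without Y-titled library 4, a female, the difference of 1.41 percentage points became 0.616, with O-titled still lower (exact permutation test, p = 0.2). Permuting titles within each sex gave p = 0.222 by the exact test, which can reach 0.0556. As a share of sequenced bases, which counts each read by its length, the means were 5.95% ± 0.335 and 7.03% ± 1.17 (SD, n = 4 each, exact permutation test, p = 0.0571). Females averaged 8.48% ± 1.94 and males 7.62% ± 0.0923 (SD, n = 4 each, exact permutation test, p = 0.514), and without Y-titled library 4 the females' mean was lower than the males' by 0.0242 percentage points. In whole liver, fewer mitochondria-rich cells and less mitochondrial RNA per cell cannot be told apart from such shares.

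**Figure D2:**
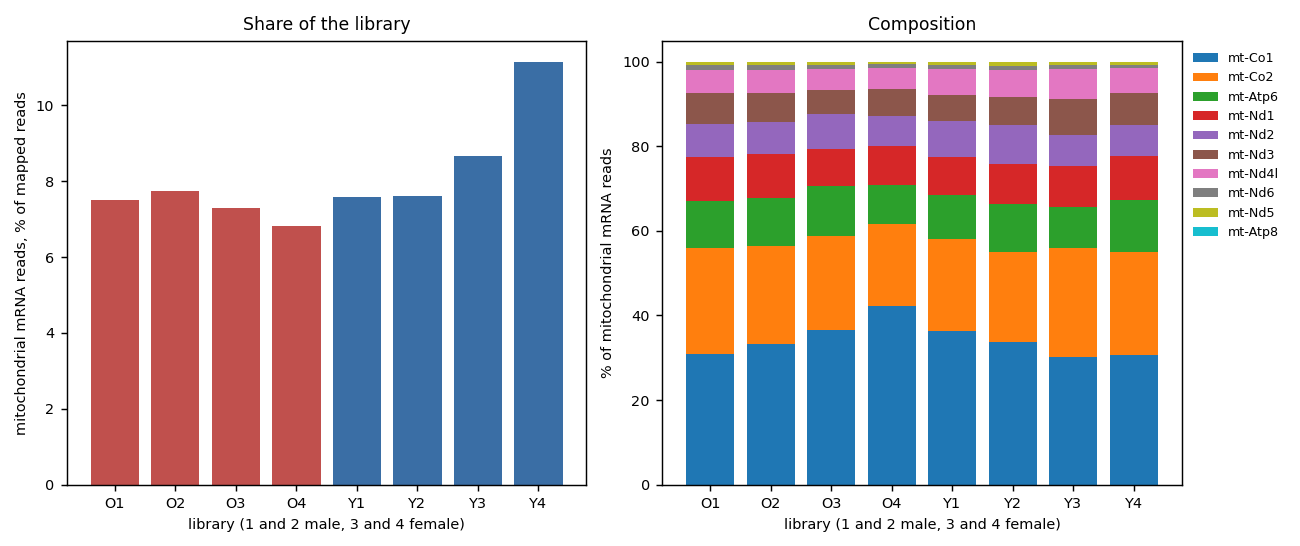
Left, mitochondrial mRNA reads as a percentage of mapped reads in each library (O-titled red, Y-titled blue); right, the percentage of those reads assigned to each of the 10 genes. The share runs from 6.82% in O-titled library 4 to 11.1% in Y-titled library 4, and mt-Co1 and mt-Co2 fill most of each bar.

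Reads were not spread evenly over the genes. mt-Co1, the catalytic core subunit of cytochrome c oxidase, held the most reads of the 10 in each of the 8 libraries, with 30.2% to 42.2% of mitochondrial mRNA reads. mt-Co2, which accepts electrons from cytochrome c, followed with 19.4% to 25.8%. mt-Atp6 held 9.40% to 12.2%, mt-Nd1 8.73% to 10.6%, mt-Nd2 7.09% to 9.18%, mt-Nd3 5.72% to 8.47% and mt-Nd4l 4.86% to 7.15%. mt-Nd6 and mt-Nd5 held 0.790% to 1.15% and 0.570% to 0.871%. mt-Co1 took its largest share, 42.2%, in O-titled library 4, where mt-Co2, mt-Atp6 and mt-Nd5 took their smallest.

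The order changed once levels were taken per length, as reads per kilobase of annotated gene per 1000000 mapped reads. On this scale mt-Co2 stood first at 27153 ± 6383 (SD over 8 libraries), above mt-Co1 at 17623 ± 2072 in all 8 libraries. mt-Co1, mt-Nd3 at 16145 ± 4380 and mt-Nd4l at 15751 ± 3779 did not differ beyond their spread: mt-Co1 exceeded mt-Nd3 in 5 of 8 libraries and mt-Nd3 exceeded mt-Nd4l in 6 of 8. mt-Atp6 followed at 13016 ± 3047 and was below mt-Nd4l in 7 of 8 libraries. mt-Nd1 at 8191 ± 1844 and mt-Nd2 at 6081 ± 922 kept this order in all 8 libraries. The lowest were mt-Nd6 at 1439 ± 214, mt-Nd5 at 326 ± 63.4 and mt-Atp8 at 178 ± 18.6, whose ranges did not overlap one another. If the reads of mt-Nd4l are counted per kilobase of the 1668-base pair, its level is 2805 ± 673 in place of 15751, between mt-Nd2 and mt-Nd6. Reads that cover mt-Nd4 alone are not counted in either value. Each read is counted as 1 molecule whatever its length, so division by length raises short genes. Within complex I the means ran from 326 (mt-Nd5) to 16145 (mt-Nd3) per kilobase, and from 595 (mt-Nd5) to 7839 (mt-Nd1) reads per 1000000 mapped reads without that division.

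Over both sexes, 1 of the 10 genes was called between O-titled and Y-titled libraries. For the levels tested here, counts were divided by library sizes adjusted with the trimmed mean of M values (TMM) to give counts per 1000000 reads (CPM), and a gene was called at an adjusted p of 0.05 or less in edgeR's quasi-likelihood test with Benjamini-Hochberg adjustment over 6759 genes. mt-Nd4l was at 4156, 4428, 3368 and 3273 CPM in O-titled libraries 1 to 4. It was at 4974, 5319, 6333 and 6618 in Y-titled libraries 1 to 4, so that every O-titled value lay below every Y-titled one. Its log2 fold change was -0.61 (SE 0.132, edgeR adjusted p = 0.0118). The background in this direction was 1.92% of all tested genes called lower. mt-Nd4l reads have the typical length of the mt-Nd4l and mt-Nd4 pair, and pair reads lacking their 5′ end can cover mt-Nd4 alone. Whether the share of such reads differed between the groups was not examined, and this limit applies to every mt-Nd4l level. The call did not hold without O-titled library 3, O-titled library 4 or Y-titled library 4, with adjusted p of 0.0555, 0.0625 and 0.0607.

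The other 9 estimates were also negative and did not pass: the median log2 fold change of the 10 was -0.36, against -0.00095 for all tested genes, of which 50.1% had a negative estimate, and edgeR counted 4 of the 10 at an unadjusted p under 0.05, against 1098 of all 6759 genes. The exception in sign was mt-Nd6, whose -0.09 turned to 0.0026 when libraries were scaled by total mapped reads and to 0.06 without O-titled library 4 or Y-titled library 4. Levels of 4 genes did not overlap between the groups and were lower in O-titled libraries, mt-Nd2, mt-Nd4l, mt-Nd5 and mt-Atp8, while 4.62% of all tested genes showed this. With no filter on low counts, 7 of the 10 were called lower in edgeR, mt-Nd1, mt-Nd2, mt-Co2, mt-Atp6, mt-Nd3, mt-Nd4l and mt-Nd5. In that fit 267 of 15751 genes were called lower, against 130 of 6759 with the filter. Calls in either direction numbered 600 of 15751 in place of 271 of 6759. The 10 members varied together over the libraries, so the counts of members given here are not independent results. The largest estimates after mt-Nd4l were those of mt-Nd3 at -0.47, mt-Nd5 at -0.44 and mt-Nd2 at -0.40. Females against males, over both titles, gave estimates between -0.21 and 0.09, none of which passed in edgeR, where 2.96% of all genes were called in either direction. DESeq2 also called 0, and no member reached an unadjusted p under 0.05. The median of these estimates was -0.01, and 0.08 when scaled by total mapped reads.

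The title difference was then taken within each sex, from a fit with a separate mean for each of the 4 sex and title combinations. In females, 6 of 10 mitochondrial mRNAs were called lower in O-titled livers, against a background of 2.74% of all genes called lower. In males, none of the 10 was called in edgeR, where the background was 1.26% in either direction, DESeq2 called 0 as well, and no unadjusted p was under 0.05. The median log2 fold change of the 10 was -0.69 in females and -0.07 in males, against -0.0071 and -0.0029 for all genes. Scaling by total mapped reads gave -0.58 and 0.0087, with a median of all genes of 0.097 and 0.084. Each mean here rests on 2 libraries, and the spread is that of all 4 combinations. The 10 mRNAs are encoded on the same genome and varied together over the libraries (median Pearson's r of pairs 0.77). Their calls are therefore not independent results, as a comparison with the background of all genes would assume.

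mt-Nd3, a small membrane subunit of complex I at the junction of its membrane and peripheral arms, differed most. It stood at 5426 and 5637 CPM in O-titled males and at 5096 and 5529 in Y-titled males, and these ranges overlapped. In females it was at 3965 and 4173 in O-titled and at 7502 and 8777 in Y-titled libraries, with the males of both titles in between. Its log2 fold change was -1.0 within females (SE 0.139, edgeR adjusted p = 1.09e-04) and 0.06 within males (SE 0.138, edgeR adjusted p = 0.948). The female change less the male change, tested as an interaction, was -1.06 (SE 0.195, edgeR adjusted p = 0.0175).

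mt-Co2 showed the same arrangement. Its values were 18752 and 19106 CPM in O-titled males and 17949 and 17593 in Y-titled males, slightly higher in the O-titled pair. In females they were 15351 and 12670 in O-titled and 22836 and 28070 in Y-titled libraries. The log2 fold change was -0.86 within females (SE 0.142, edgeR adjusted p = 7.16e-04) and 0.09 within males (SE 0.141, edgeR adjusted p = 0.902), and their difference was -0.95 (SE 0.199, edgeR adjusted p = 0.0343).

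mt-Nd4l, mt-Nd1, mt-Nd5 and mt-Nd2 made up the rest of those that fell in females. mt-Nd4l fell by 0.96 on the log2 scale (SE 0.135, edgeR adjusted p = 1.13e-04), from 6333 and 6618 CPM in Y-titled to 3368 and 3273 in O-titled females. Its males were also lower in O-titled livers without overlap, with a log2 fold change of -0.26 that did not pass (edgeR adjusted p = 0.575). mt-Nd1, which contributes to the quinone-binding end of the membrane arm, was at 6049 and 5981 CPM in O-titled females and 8557 and 12124 in Y-titled females. Its fold change was -0.78 in females (SE 0.154, edgeR adjusted p = 0.0037) and 0.11 in males, where the O-titled values of 7901 and 8508 lay above the Y-titled values of 7487 and 7705.

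The antiporter-like subunits of the proton-pumping arm, mt-Nd5 and mt-Nd2, had smaller differences. mt-Nd5 was at 521 and 372 CPM in O-titled females and at 650 and 822 in Y-titled females, a log2 fold change of -0.72 (SE 0.169, edgeR adjusted p = 0.0149). mt-Nd2 was at 5648 and 4638 against 6524 and 8361, a log2 fold change of -0.53 (SE 0.152, edgeR adjusted p = 0.0456). Both were also lower in O-titled males without overlap, by estimates of -0.16 and -0.26 that did not pass.

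The remaining 4 genes were not called in females. mt-Co1 gave 25396 and 27571 CPM in O-titled females and 26748 and 35121 in Y-titled females, the only member whose female values overlapped. Its log2 fold change of -0.22 in females was close to the -0.19 in males, and the difference of -0.04 changed sign under other settings. mt-Atp6 gave 8248 and 6147 against 8651 and 14048 (log2 fold change -0.66, SE 0.212, edgeR adjusted p = 0.119), and was called only without Y-titled library 3 (adjusted p = 0.0062). mt-Nd6, which encodes a membrane subunit of complex I from the opposite strand, gave 684 and 542 against 717 and 907 in females and 826 and 947 against 752 and 750 in males. Its log2 fold changes were -0.41 and 0.24, and the difference of -0.64 did not pass (edgeR adjusted p = 0.372). mt-Atp8 gave 36.5 and 28.0 against 43.2 and 37.7 on 40 to 47 reads per female library, and its log2 fold change was -0.34 (SE 0.239, edgeR adjusted p = 0.543).

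All 10 interaction estimates were negative, with a median of -0.64 against -0.0096 for all genes, of which 51% were negative. Because the 10 varied together over the libraries, their shared sign is not 10 independent results. The estimate of mt-Co1 alone was positive when scaled by total mapped reads, at 0.0030, and without O-titled library 2 or 3 or Y-titled library 2 or 4. The interaction called mt-Nd3 and mt-Co2 lower and no other member, 2 of 10 against a background of 0.237%, and 6 of the 10 had an unadjusted p under 0.05, against 572 of all 6759 genes. These 2 calls depended on single libraries. With 1 of 8 libraries left out, mt-Nd3 was called in 2 of 8 fits, those without O-titled library 4 and without Y-titled library 3, with a largest adjusted p of 0.0934, and its estimate ran from -1.16 to -0.93. mt-Co2 was called in 1 of those fits, without Y-titled library 3, with estimates from -1.09 to -0.78 and a largest adjusted p of 0.221.

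The 6 calls within females also differed in how they held. mt-Nd3, mt-Nd4l and mt-Co2 were called in all 12 alternative fits, and their largest adjusted p values were 0.0041, 0.0043 and 0.0439. mt-Nd1 was lost only without Y-titled library 4, where its log2 fold change was -0.49 (adjusted p = 0.129). mt-Nd5 was lost without O-titled library 4, without Y-titled library 4 and in DESeq2, with adjusted p of 0.191, 0.233 and 0.0536. mt-Nd2 was called in 2 of 12, those with DESeq2's size factors and without Y-titled library 3. Without Y-titled library 4 the median of the 10 in females was -0.46 and 3 members were called. In the fits without a female library, 1 title was left with a single female, which is assumed to vary like the other combinations.

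**Figure D3:**
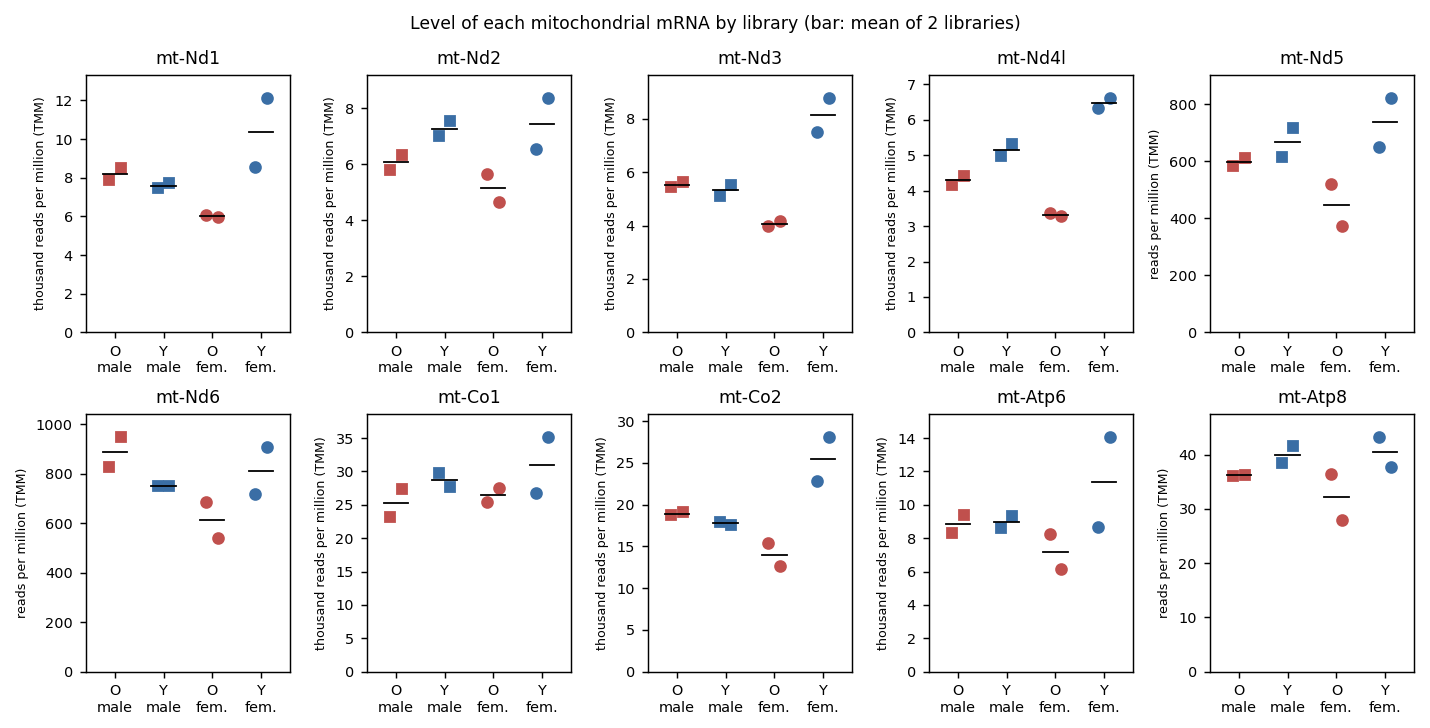
TMM-scaled CPM for each of the 10 mitochondrial mRNAs (1 panel each, vertical axes from 0), with 1 point per library, O-titled red, Y-titled blue, squares male and circles female, and a bar at the mean of each pair. In females 9 of 10 genes have both O-titled points under both Y-titled points, mt-Co1 being the exception, against 23.9% of all genes; in males 5 genes are separated with O-titled lower, 3 with O-titled higher and 2 overlap, against 20.4% and 20.3% of all genes.

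**Figure D4:**
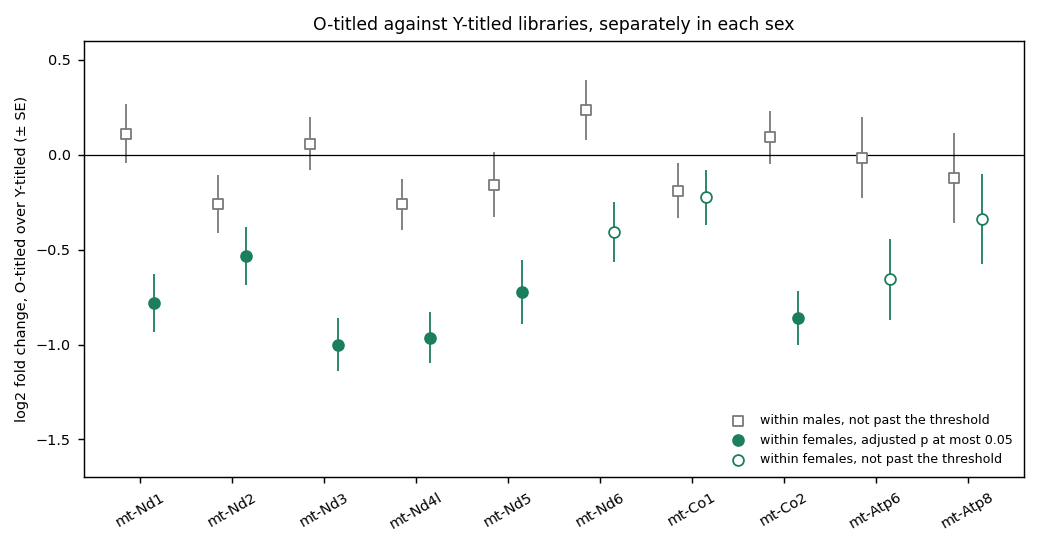
Log2 fold change of O-titled over Y-titled libraries with its standard error, fitted within males (grey squares) and within females (green circles), filled where the edgeR adjusted p was at most 0.05. The 6 filled female points lie between -1.0 and -0.53, and the male points lie between -0.26 and 0.24.

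Split by title instead, the sexes stood in opposite order. In Y-titled livers all 10 estimates were higher in females, with a median of 0.24 and 1 call, mt-Nd3 at 0.62 (SE 0.138, edgeR adjusted p = 0.0195), against 0.873% of all genes called higher in females. In O-titled livers 9 of 10 were lower in females, with a median of -0.39. None was called there in edgeR, against 2.66% of all genes in either direction, and 6 had an unadjusted p under 0.05, against 833 of all 6759 genes. mt-Co1 was the member with a positive estimate there, at 0.07. These contrasts use the same libraries as those within each sex and are the same values taken the other way.

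Ratios of reads between members are given as a description. Reads of mt-Nd3 for each read of mt-Co1 were 0.235 and 0.206 in O-titled males and 0.171 and 0.199 in Y-titled males. In females they were 0.156 and 0.151 in O-titled and 0.280 and 0.250 in Y-titled libraries. The ratio of mt-Co2 to mt-Co1 was 0.811 and 0.699 against 0.602 and 0.635 in males, and 0.604 and 0.460 against 0.854 and 0.799 in females. For both ratios O-titled libraries were above Y-titled ones in males and below them in females. Reads of mt-Nd6, from the other strand, per read of its neighbour mt-Nd5 numbered 1.31 to 1.55 in O-titled and 1.05 to 1.22 in Y-titled libraries, with no overlap between the titles. The ratios were not tested.

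No member was called relative to the mitochondrial total when the edgeR fit was scaled to the summed mitochondrial reads, either between titles (0 of 10, also 0 at an unadjusted p under 0.05, background 11.4% in either direction) or between sexes (0 of 10, also 0 at an unadjusted p under 0.05, background 2.53% in either direction). DESeq2 was not run on this scale. The title difference in this fit is shared by both sexes, and neither the difference within each sex nor the interaction was tested on this scale. Changes of opposite sign in the sexes, as in the ratios of mt-Nd3 and mt-Co2 to mt-Co1 above, can cancel in it. Estimates between titles ran from -0.29 for mt-Nd4l to 0.24 for mt-Nd6, with mt-Co1 at 0.12. The standard errors of the members between titles ran from 0.174 for mt-Nd1 to 0.245 for mt-Atp8 on this scale. That of mt-Nd2 was 0.213, against 0.120 with TMM scaling, and that of mt-Nd1 was 0.176 with TMM scaling. The median log2 fold change of all tested genes between titles was 0.33 on this scale.

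Read lengths of the members did not pass a test between titles or sexes. The mean length of all mitochondrial reads was 960 ± 24.6 bases in O-titled and 972 ± 31.1 bases in Y-titled libraries (SD, n = 4 each, exact permutation test, p = 0.6), and that of nuclear reads was 1203 ± 31.2 and 1230 ± 35.3 bases (exact permutation test, p = 0.257). mt-Nd6 reads averaged 761, 768, 786 and 750 bases in O-titled libraries 1 to 4 and 872, 1023, 909 and 803 bases in Y-titled ones, shorter in every O-titled library. The log2 difference was -0.23 (SE 0.0637) and did not pass in limma over 4248 transcripts (adjusted p = 0.673). No transcript was called between titles (0%, with 284 at an unadjusted p under 0.05, 1 of them a member). mt-Co1 reads were also shorter in each O-titled library, at 1152 to 1194 bases against 1194 to 1229 bases, and 5.08% of all transcripts showed such a separation. After each library was centred on its median length the mt-Co1 difference turned from -0.04 to 0.01.

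Between sexes, mean reads of mt-Atp6 were 682 to 700 bases in females and 712 to 765 bases in males. Those of mt-Nd5 were 1017 to 1083 bases in females and 1149 to 1198 bases in males. Both were shorter in every female, as were 1.55% of all transcripts, and limma's adjusted p values were 0.781 and 0.568. Only 0.0235% of transcripts, a single one that is not mitochondrial, passed between sexes.

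The nuclear-encoded subunits that share these complexes were set beside the members. All 66 listed subunits of complexes I, III and IV and of ATP synthase were tested. In females 54 of 66 estimates were lower in O-titled livers, with a median of -0.12, and 1 was called, Ndufa13, an accessory subunit of complex I (log2 fold change -0.53, SE 0.140, edgeR adjusted p = 0.0317), where 2.74% of all genes were called lower. In males 61 of 66 were lower, with a median of -0.24, and none was called in edgeR (13 at an unadjusted p under 0.05, against 639 of all 6759 genes). By complex, the medians in females were -0.08 for complex I (32 genes), -0.12 for complex III (9), -0.22 for complex IV (10) and -0.12 for ATP synthase (15), and in males -0.21, -0.24, -0.26 and -0.24. The interaction estimates were positive for 48 of the 66, with a median of 0.08. Those of all 10 mitochondrial mRNAs were negative in the same fit. For the interaction, edgeR called 0 of the 66 nuclear genes. Before adjustment 1 of the 66 fell below 0.05, as did 572 of all 6759 genes. Within females 5 of the 66 did so, as did 1112 of all 6759 genes. The nuclear interaction estimates thus did not stand out gene by gene. Over both sexes 61 of the 66 were lower in O-titled livers, with a median of -0.16, none called in edgeR and 19 at an unadjusted p under 0.05, against 1098 of all 6759 genes. The most abundant of each complex over both sexes did not pass: Ndufa6 and Ndufb9 of complex I gave -0.17 and -0.24, Uqcrq and Uqcr11 of complex III -0.01 and -0.16, Cox7c and Cox6c of complex IV -0.29 and -0.34, and Atp5b and Atp5g3 of ATP synthase -0.11 and -0.15. The adjusted p values of these 8 genes in edgeR were 0.081 or more, the lowest being that of Cox6c, with means of 678 ± 55.0 CPM (O-titled) and 856 ± 6.60 CPM (Y-titled; SD, n = 4 each).

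**Figure D5:**
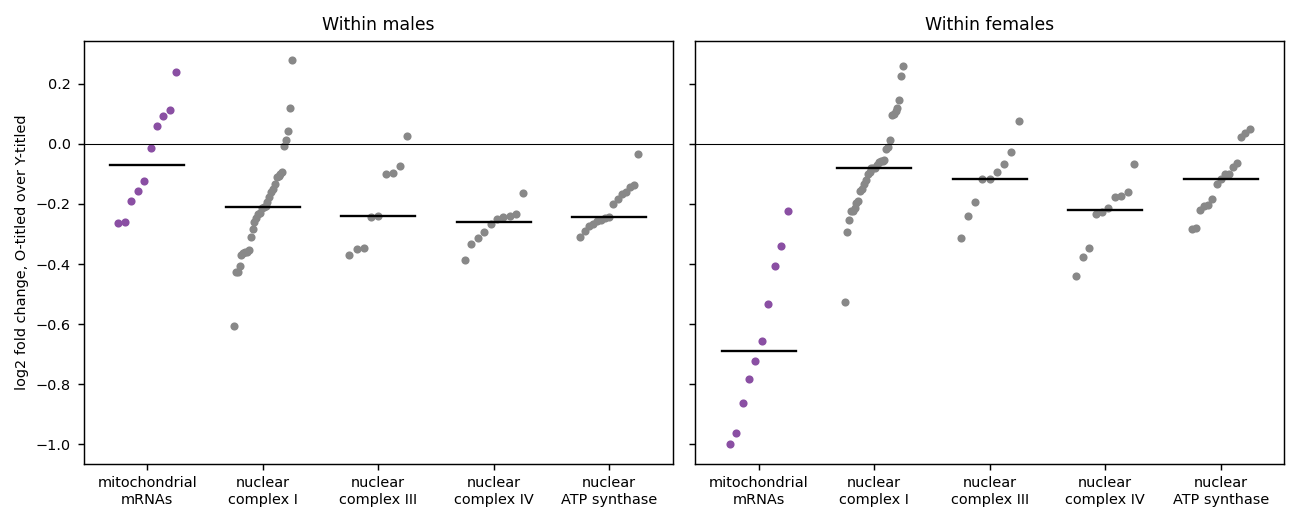
Log2 fold change of O-titled over Y-titled libraries for the 10 mitochondrial mRNAs (purple) and the nuclear subunits of complex I, complex III, complex IV and ATP synthase (grey), within males on the left and within females on the right; bars are medians. The mitochondrial median is -0.07 in males and -0.69 in females, while the medians of the 4 nuclear groups lie between -0.26 and -0.08 in both panels.

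Of the genes that maintain and express mitochondrial DNA, none of those tested was called between titles, over both sexes or in either sex. Within females the median log2 fold change was -0.11 for 10 tested genes of mitochondrial DNA maintenance and transcription, -0.11 for 19 of mitochondrial RNA processing, polyadenylation and decay, -0.18 for 10 of mitochondrial translation and -0.08 for 4 biogenesis regulators. Within males these were -0.12, -0.11, -0.16 and -0.11. In the same order, 10 of 15, 19 of 21, 10 of 12 and 4 of 8 listed genes were tested, and the rest did not pass the filter on low counts. Over both sexes the medians were -0.19, -0.09, -0.16 and -0.15, with 9, 12, 9 and 3 estimates lower in O-titled livers. The 2 most abundant genes of each list did not pass over both sexes in edgeR. Tfam, the factor that packages mitochondrial DNA and starts its transcription, gave -0.14 (adjusted p = 0.79), and Ssbp1, the mitochondrial single-strand DNA binding protein, gave -0.29 (adjusted p = 0.456). Hsd17b10, a subunit of the mitochondrial RNase P, gave 0.13, and Slirp, which stabilises mitochondrial mRNAs, gave -0.11. The ribosomal protein gene Mrpl12 gave -0.14, and the elongation factor gene Tufm gave -0.15. Of the biogenesis regulators the most abundant were Tfam, given above, and Ppara, a regulator of fatty acid oxidation genes, at -0.16. The adjusted p of Hsd17b10, Slirp, Mrpl12, Tufm and Ppara was 0.637 or more.

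Cell type markers were followed in the same libraries. List sums are CPM of mapped reads without TMM adjustment, whereas the log2 fold changes come from the TMM-scaled fits. The hepatocyte list summed to 71303 to 95830 CPM in O-titled and 65530 to 109805 in Y-titled libraries. Its 5 genes had a median log2 fold change of -0.42 in females, where 4 of 5 estimates were lower and Ttr, which encodes the transport protein transthyretin, was called at -0.55 (edgeR adjusted p = 0.027). The median of the list was -0.17 in males and -0.47 in the interaction, where 4 of 5 estimates were negative and none was called. The Kupffer cell and macrophage list summed to 345 to 1053 against 380 to 469, and all 7 estimates were higher in O-titled libraries, with a median of 0.68 and none called in edgeR, Lyz2 at 1.43 (adjusted p = 0.211) and Cd5l at 0.68 (adjusted p = 0.426) being the most abundant. Of the 5 stellate markers, 3 estimates over both sexes were higher in O-titled libraries and 2 were lower. Dcn alone was called higher (0.58, edgeR adjusted p = 0.0096), as were 141 of all 6759 genes. The list summed to 210 to 295 against 145 to 203. The erythroid list summed to 2363 and 2894 in O-titled and 1664 and 1968 in Y-titled females, with a median change of 0.32 there and -0.52 in males, where Hbb-bt was called lower (-0.84, edgeR adjusted p = 0.0126). Hbb-bt was also called in the interaction (1.16, edgeR adjusted p = 0.0343). The sinusoidal endothelial list summed to 122 to 162 against 103 to 155. Cholangiocyte and lymphocyte lists stayed at 33.8 or below in each library, and 3 of 4 brown fat and muscle markers (Ucp1, Ckm and Acta1) were at 0 in all 8. The other one of that list, Cidea, was at 20.8 and 45.5 CPM of mapped reads in O-titled male libraries 1 and 2 and at 0 in the other 6. No marker other than Ucp1, Ckm and Acta1 was at 0 in all libraries. The part of these marker differences in the mitochondrial values was not tested.

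Across the 8 libraries the 10 mRNAs varied together to different degrees. Over the 45 pairs of members, Pearson's r of log2 levels had a median of 0.77 and ran from 0.08 to 0.96. mt-Nd6 and mt-Co1 had r = 0.24 with each other. Among 6744 genes compared, the nuclear genes whose log2 level followed the summed mitochondrial level most closely were Slc25a22, a mitochondrial glutamate carrier (r = 0.96), Lgals9 (0.94), Golph3 (0.93), Tceal8 (0.93) and Pqlc2 (0.93). The most opposed were Bcat2, the mitochondrial branched-chain aminotransferase (-0.94), and Slc2a9, a urate transporter (-0.93). Without Y-titled library 4 these became 0.94, 0.93, 0.79, 0.93 and 0.86, and -0.88 and -0.89. The points are 8 libraries that share depth and scaling, and the genes were ranked on these same values.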

How the data were processed

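Direct RNA reads from 8 mouse livers were analysed from the deposited tables. Per the file headers these hold whole-number counts of reads per transcript, not normalized, made by the authors, and the read lengths in bases per transcript (deposited minimum, maximum, mean, median and spread), together with total and mapped reads. The submitters' processing notes name minimap2 2.24, mm10 and DESeq2 without their roles, and the counting rule is not given in the sources used here. Reads that match nuclear copies of mitochondrial DNA were not analysed here.

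Gene sums of the transcript counts were fitted in R 4.3.3 with edgeR 4.0.16 (filterByExpr minimum 10, TMM, robust quasi-likelihood F test, Benjamini-Hochberg adjusted p of 0.05 or less). Log2 mean read lengths of transcripts with at least 10 reads in every library were tested with limma 3.58.1. Shares were compared by exact permutation tests written in Python 3.11.15, and their Wilson intervals were computed with scipy 1.17.1. The scripts were tested on simulated data. Alternatives were DESeq2 1.42.0, other scalings, no filter, a replicate block, 50 reads for lengths and each library left out. Same-numbered libraries share sex and no labelled litter or day.

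The members, the nuclear lists and the rule for named genes were chosen with earlier results of these data known. Named were all members, from each nuclear list the called genes (at most 5 per direction) or, with none called, the 2 most abundant, and by likeness the 5 highest and 2 lowest r with a prior count of 2.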

Additional observations from a re-analysis of the deposited data

Results flagged for a closer look

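Among the 66 sets of 4 libraries examined for a value standing apart from the rest, 3 had one, where chance gives about 1 in 20. The mean length of mitochondrial reads in O-titled library 4 was 996 bases, above the next highest of its group at 953 bases. mt-Atp8 was at 28.0 CPM in the same library, below the next lowest at 36.1, on 40 reads. mt-Atp6 was at 14048 CPM in Y-titled library 4, above the next at 9304.

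The title difference differed between the sexes, by the interaction test in edgeR, for mt-Co2 at -0.95 and for mt-Nd3 at -1.06. Both calls were lost when any 1 of 6 libraries was left out, and that of mt-Co2 also without O-titled library 4. Of 10 read ratios examined, 4 had the O-titled libraries wholly on opposite sides of the Y-titled ones in the 2 sexes, those of mt-Nd2 to mt-Nd1, mt-Co2 to mt-Co1, mt-Nd1 to mt-Co1 and mt-Nd3 to mt-Co1. The log2 title difference in females less that in males was 0.60, -0.93, -0.85 and -1.04 for these ratios. The other 6 ratios did not show this, and the differences in ratios were not tested. These ratios share mt-Co1 or mt-Nd1 and are not independent. Separation of 2 against 2 libraries was common for gene levels. In males it held for 20.4% of all genes with O-titled lower and 20.3% with O-titled higher. In females it held for 23.9% with O-titled lower. The share for ratios of other genes was not examined.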

How the results depend on the processing

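Between titles, 1 member was called. This became 7 with no filter on low counts and 0 with a replicate block (mt-Nd4l log2 fold change -0.61 in both fits, adjusted p = 0.0542 with the block), and 0 to 1 when a library was left out. All genes called went from 271 of 6759 to 600 of 15751 with no filter, to 184 with the block and to 154 to 294 with a library left out. Deviations of same-numbered libraries from their sex and title means correlated at -0.27 in males and 0.02 in females. With 2 libraries per sex and title this is a single value per sex. It cannot show whether same-numbered libraries shared a day or run, and no such label is given.

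Between sexes, 200 of 6759 genes were called, 401 of 15751 with no filter and 125 to 217 with a library left out. No member was called in these fits. The interaction called 2 members, 1 with total mapped reads, 1 with DESeq2 and 0 to 3 with a library left out, and 26 genes in all, 8 to 45 with a library left out. Within females, 6 members became 3 to 7 and 370 genes 133 to 371 with a library left out, and DESeq2 called 174 genes. Within males, 85 genes became 52 with DESeq2 and 31 to 127 with a library left out. The alternatives of the within-sex and interaction fits other than total mapped reads and leaving out a library were chosen after seeing the data. Scaling by total mapped reads moved the split of higher and lower calls from 141 and 130 to 235 and 100 between titles, from 122 and 78 to 179 and 57 between sexes, from 185 and 185 to 252 and 132 within females, and from 43 and 42 to 58 and 34 within males.

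Relative to the mitochondrial total, the 769 genes called between titles became 439 with mt-Co1 as the reference and 225 to 878 with a library left out. For read length, 0 transcripts between titles became 1 with centred libraries and 0 to 1 with a library left out, and 1 between sexes became 2 and 1 to 3. No member was called on these scales. Signs that turned were those of mt-Nd6 between titles (0.0026 with total mapped reads, -0.17 to 0.057 with a library left out), mt-Co1 in the interaction (0.0030, and -0.22 to 0.19), mt-Co1 within females (-0.41 to 0.00050 with a library left out), mt-Co1 read length between titles (0.011 with centred libraries) and the mitochondrial share between sexes (-0.0242 to 1.42 percentage points with a library left out). The cause of these shifts was not tested. Depth limits mt-Atp8 most, at 21 to 94 reads per library.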
